A study of Homo sapiens with 9 samples.

Results

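The PANC-1 vector line was described from its 3 RNA sequencing libraries, out of 9 in the series, and no other library enters the levels below. PANC-1 is an established human pancreatic ductal carcinoma cell line. The vector cells had been transduced with the empty lentiviral plasmid pLV-EV and selected with puromycin, which stayed in their serum-supplemented DMEM. The other lines of the study carried pLV-SLC22A10 or pLV-SLC22A15, and the vector line is the control against which the study set each of them. The labels call the vector cells clones without saying whether they were 1 clone or a pool, and they do not say that the 3 libraries came from separate cultures. The titles carry the letters A, A and B, whose meaning is not given and which do not name the columns of the table, so libraries are called 1 to 3 here. The spread between libraries is only that between these samples, and it may be technical. All listed genes of these libraries were used, 16750 in number, and the question was what the control cells express, at what level and how evenly.

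Pancreatic duct cells are simple epithelial cells that carry keratin 8, 18 and 19 filaments, tight junctions and the transcription factor SOX9, and that secrete bicarbonate through anion channels and exchangers. Pancreatic carcinomas are often sorted by expression into a classical class with gut-like epithelial genes and a basal-like or quasi-mesenchymal class. Carcinoma cells that take on mesenchymal features lose E-cadherin and gain vimentin and transcription factors such as ZEB1. PANC-1 is known as a line without CDKN2A.

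Levels are in CPM, the reads of a gene scaled to library size, and each mean is over 3 libraries with its SD. The libraries held 32300122, 35367856 and 37626368 reads, so that 1 CPM stood for 32.5, 35.6 and 37.7 reads and had a counting SD of 16.3% to 17.5%. A gene is called present at 1 CPM or more in all 3 libraries, under the threshold below 1 CPM in all 3, and split otherwise. A gene with no row in the table is counted apart, because every listed gene reached at least 0.288 CPM in at least 1 of the 9 libraries, and a gene with no row has no value here. Where genes are put in order by CPM per kilobase, the length is that of the longest coding transcript. Where 2 genes in such an order change places with the length of all merged exons, this is named beside it. Other genes, and the medians of lists, are set side by side in plain CPM, which is not corrected for transcript length. In bulk RNA of a cell line, fewer cells with a transcript and less transcript per cell cannot be told apart.

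All 4 genes that mark the line were present. Vimentin (VIM), the mesenchymal intermediate filament, stood at 2988, 3174 and 3110.2 CPM in libraries 1 to 3, a mean of 3091 ± 94.3 CPM (SD, n = 3). Keratin 18 (KRT18) stood at 160.1, 163 and 162 CPM and its filament partner keratin 8 (KRT8) at 101, 82.7 and 90.99 CPM. SOX9, the duct and progenitor transcription factor, stood at 133, 123 and 124 CPM. Per kilobase, VIM (1448 ± 44.2) lay above KRT18 (95.3 ± 0.864), KRT8 (37.5 ± 3.70) and SOX9 (32.2 ± 1.33). KRT8 and SOX9 lay close together, and with the length of all merged exons SOX9 was the higher, at 32.2 against 13.3. KRT8 was highest in library 1 and lowest in library 2, while the 3 KRT18 values lay within counting noise of each other. VIM ranked 10 of 13802 protein-coding genes per kilobase, and 25 when the length of all merged exons was used.

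Upstream sequence is shown for 2 of these markers and for 2 transcription factors that come later, TP63 at 273 CPM and GATA6 at 0.309 CPM, to set base composition beside level. The genes were chosen after their levels were seen. A single RefSeq start was kept per gene, while the level is a gene total. Whether the start shown is the one used in these cells was not tested. Each is the 150 bases just upstream of the RefSeq start, 5′ to 3′ on the strand of the gene, from RefSeq on GRCh38.p14, with every CG dinucleotide in capitals. The sites are chr10:17228091-17228240 on the plus strand for VIM, chr12:52926470-52926619 on the minus strand for KRT8, chr3:189631239-189631388 on the plus strand for TP63 and chr18:22169439-22169588 on the plus strand for GATA6.
VIM: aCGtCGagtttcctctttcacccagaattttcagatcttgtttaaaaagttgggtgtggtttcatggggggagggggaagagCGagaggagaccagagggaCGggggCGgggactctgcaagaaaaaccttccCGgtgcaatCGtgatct
KRT8: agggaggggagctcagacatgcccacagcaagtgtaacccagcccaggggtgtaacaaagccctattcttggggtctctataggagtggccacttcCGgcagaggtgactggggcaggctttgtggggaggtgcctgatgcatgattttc
TP63: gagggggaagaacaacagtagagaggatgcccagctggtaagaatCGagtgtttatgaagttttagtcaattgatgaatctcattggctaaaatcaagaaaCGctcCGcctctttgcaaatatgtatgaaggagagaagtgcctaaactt
GATA6: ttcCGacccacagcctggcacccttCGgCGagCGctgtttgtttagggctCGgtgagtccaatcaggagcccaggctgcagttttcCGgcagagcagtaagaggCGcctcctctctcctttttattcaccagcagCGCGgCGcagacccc
In the window of 300 bases around the start, VIM held 10 CG dinucleotides, KRT8 held 2, TP63 held 7 and GATA6 held 25. The gene with the lowest level of the 4 therefore had the most. None of the 4 held TATAAA on its own strand upstream of its start.

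Of the listed genes, 13667 (81.6%) were present in all 3 vector libraries, 2323 were under the threshold and 760 were split. A mean of 10 CPM or more was reached by 9699 (57.9%) and 100 CPM or more by 2478 (14.8%). Against all 20052 RefSeq protein-coding genes, the 12154 present genes make 60.6%, the share to read beside the lists below. The median listed gene stood at 16.5 CPM. Reads were not concentrated in a few genes: the most abundant gene took 1.13% ± 0.169 (SD, n = 3) of reads, the top 10 took 5.96% ± 0.193 and the top 100 took 17.8% ± 0.166, and 1065 genes together held 50% of reads. Nuclear protein-coding genes took 91.6% ± 0.352 of reads, the mitochondrial coding genes 2.26% ± 0.0634 and lncRNA genes 1.57% ± 0.0561.

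Short structural RNAs led the list by reads. The libraries were made from total RNA after ribosomal depletion, with no step that selects poly(A) RNA in the labels. The signal recognition particle RNA RN7SL1 stood at 13133, 9877 and 10839 CPM, its copy RN7SL2 at 7175, 5768 and 6361 CPM and the transcription regulator RN7SK at 6596, 6593 and 6887 CPM. RN7SL1 and RN7SL2 are near-identical, so their split is uncertain. Both 7SL genes were highest in library 1 and lowest in library 2, as were the ribonuclease RNAs RMRP (3197 ± 457 CPM (SD, n = 3)) and RPPH1 (2891 ± 363 CPM (SD, n = 3)). The nuclear lncRNA MALAT1 had the opposite order at its low end, with library 1 lowest, at 6408, 7509.6 and 7387 CPM.

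Among coding genes, cytoskeleton, glycolysis, chaperone, translation and respiratory chain genes filled the highest ranks. By CPM per kilobase the mitochondrially encoded oxidase subunit COX1 led at 3799 ± 86.3, followed by beta-actin (ACTB) at 3375 ± 233 and the oxidase subunit COX3 at 3056 ± 127. All 3 COX1 values lay above all 3 ACTB values. With merged exons COX3, at 3056, passed ACTB, at 1843. The glycolytic enzyme GAPDH came 8th at 2040.3 ± 55.6, VIM 10th, the chaperone HSP90AA1 11th at 1386 ± 121 and the ferritin light chain FTL 12th at 1340.03 ± 75.2. With merged exons FTL, at 1340.03, lay above GAPDH (1283), HSP90AA1 (927) and VIM (599), in that order. By reads alone the order differed again: the elongation factor EEF1A1, with 3212 ± 224 CPM (SD, n = 3), was 10th by CPM over all genes but outside the 25 by CPM per kilobase, at 723 ± 50.4. The long cytolinker gene DST held 2226 ± 188 CPM (SD, n = 3) and only 99.2 ± 8.39 CPM per kilobase.

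**Figure D1:**
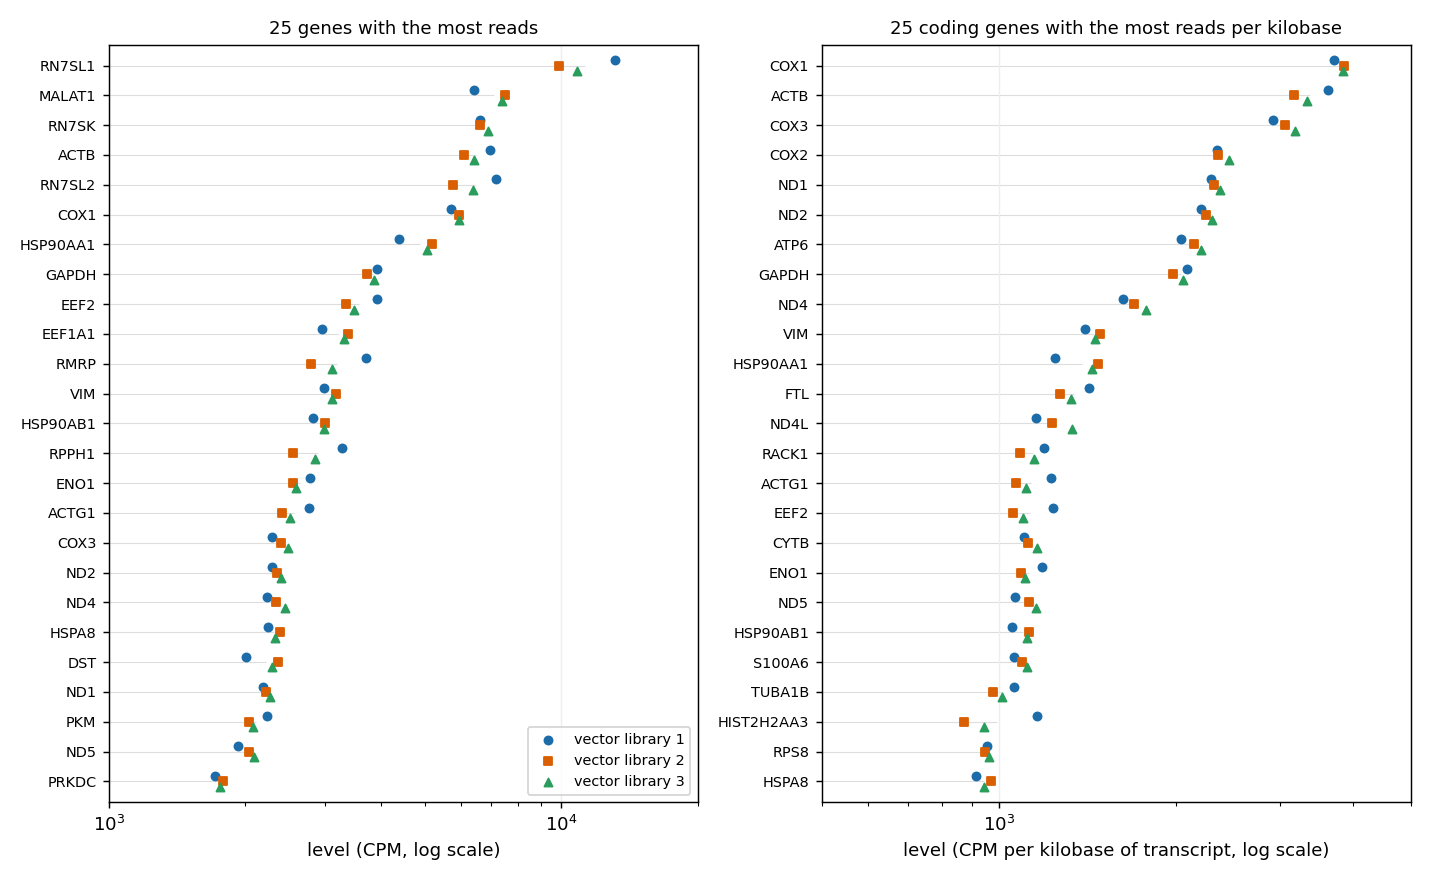
Level of the 25 named genes with the most reads (left, CPM, log axis) and of the 25 protein-coding genes with the most reads per kilobase of transcript (right, CPM per kilobase, log axis), one marker per vector library, with a thin line to the mean. RN7SL1 leads by reads at a mean of 11283 CPM and the mitochondrial COX1 leads per kilobase at 3799, and VIM is in both panels.

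Of the keratin family, which builds epithelial filaments, 6 of 55 genes were present, 2 were under the threshold, 1 was split and 46 had no row. The present ones were the simple-epithelial KRT18 (95.3 ± 0.864 CPM per kilobase), KRT19 (52.6 ± 5.51) and KRT8 (37.5 ± 3.70), then KRT80 (17.7 ± 1.03), KRT10 (7.19 ± 0.487) and KRT15 (0.338 ± 0.0485). With merged exons KRT80, at 15.8, passed KRT8, at 13.3. KRT19 stood at 81.3, 66.1 and 72.1 CPM by library, highest in library 1 like KRT8. The duct keratin KRT7 was under the threshold at 0.492, 0.563 and 0.292 CPM. The stratified and basal keratins KRT5, KRT14, KRT17 and KRT6A had no row. The list of 20 duct genes, which holds KRT7, KRT8, KRT18, KRT19 and SOX9 again, had 8 present, 3 under, 1 split and 8 with no row, with a median of 9.77 CPM over its listed members. Its share of 40.0% present lies below the 60.6% of all coding genes. Among its other members the carbonic anhydrase CA2 stood at 10.8 ± 1.20 CPM (SD, n = 3) and the membrane mucin MUC1 at 4.16 ± 0.157 CPM (SD, n = 3). The secretin receptor SCTR (0.0851 CPM) and the water channel AQP1 (0.625 CPM) were under the threshold, and the chloride channel CFTR and the bicarbonate cotransporter SLC4A4 had no row. The surface glycoprotein CD24 was split, at 0.769, 1.60 and 0.636 CPM.

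Of 32 transcription factors of pancreas development and identity, 15 were present, 4 under, 1 split and 12 without a row, with a median of 3.29 CPM. After SOX9, the highest per kilobase were the Notch target HES1 (8.60 ± 1.03), GATA4 (7.86 ± 0.664), the nuclear receptor NR5A2 (5.41 ± 0.387) and ONECUT2 (4.04 ± 0.0403), the last pair changing places with merged exons (3.64 and 4.01). GATA4 stood at 29.2, 24.6 and 26.7 CPM and ONECUT2, with a far longer transcript, at 65.6, 65.4 and 64.4 CPM. The GATA factors differed widely from one another: GATA2, better known from blood and endothelium, stood at 133, 112 and 112 CPM, above GATA4 per kilobase (35.3 ± 3.54), while GATA6, a marker of the classical class, stood at 0.492, 0.169 and 0.265 CPM, with 32 reads in all. PDX1, the pancreas master regulator, was split at 0.585, 1.04 and 0.530 CPM. Epithelial factors were low, with EHF at 5.37 ± 0.225 CPM (SD, n = 3) and ELF3 at 3.59 ± 0.454 CPM (SD, n = 3). FOXA2, HNF4A and PTF1A had no row. Of the 39 HOX factors, 10 were present and none exceeded the 11.8 CPM of HOXA3.

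Epithelial contacts were represented by desmosome and tight junction genes. Of 33 epithelial adhesion genes 15 were present, 6 under, 1 split and 11 without a row, with a median of 2.86 CPM. The tight junction protein CLDN1 led at 34.2 ± 0.628 CPM per kilobase, followed by the desmosomal PKP3 (19.4 ± 3.05) and DSG2 (17.1 ± 0.752), the junction scaffold TJP1 (12.9 ± 0.845) and desmoplakin DSP (11.2 ± 0.283). With merged exons DSG2 lay above PKP3, at 16.1 and 14.4, and DSP above TJP1, at 10.9 and 9.12. DSP stood at 107, 112 and 111 CPM, and CLDN1 at 117, 121 and 119 CPM, within a few percent across libraries. Plakoglobin (JUP) was lower, at 5.25 ± 0.701 CPM (SD, n = 3). E-cadherin (CDH1), EPCAM, the splicing factor ESRP1, GRHL2 and RAB25 had no row. In the claudin family, whose members seal or open tight junctions, 8 of 24 were present, and the highest was CLDN11, known from myelin and testis, at 471, 434 and 434 CPM and 206 ± 9.67 CPM per kilobase, above CLDN1. The epithelial CLDN4 stood at 8.76 ± 0.735 CPM (SD, n = 3), and CLDN3 and CLDN7 were under the threshold, at 0.182 and 0.431 CPM.

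Of 36 mesenchymal genes 19 were present, 3 under and 14 without a row, with a median of 26.3 CPM. Among the highest after VIM were the calcium binder S100A4 (287 ± 6.19 CPM per kilobase), the crosslinking enzyme TGM2 (57.4 ± 4.91) and the tropomyosin TPM2 (53.5 ± 2.07). S100A4 stood at 169, 171 and 176 CPM. The transcriptional repressor ZEB1 stood at 53.04, 63.4 and 61.8 CPM, lowest in library 1, and SNAI1 at 5.67 ± 0.668 CPM (SD, n = 3). ZEB2, SNAI2, TWIST1 and N-cadherin (CDH2) had no row. Fibronectin (FN1), often counted with these genes, was at only 4.68, 5.06 and 4.48 CPM, and the collagen COL1A1 was under the threshold at 0.536 CPM.

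The extracellular matrix genes showed the same unevenness inside a family. Of 44 collagens 19 were present. COL5A2, a fibrillar chain, stood at 1224, 1298 and 1297 CPM and led per kilobase at 179.8 ± 5.92. It was followed by COL17A1, the hemidesmosome collagen, at 66.4 ± 2.90, COL6A3 at 35.7 ± 1.15 and COL3A1 at 33.02 ± 0.309. COL3A1 and COL6A3 changed places with merged exons, at 26.9 and 19.5. COL6A3 exceeded its partner chains COL6A1 (14.9 ± 1.35) and COL6A2 (12.1 ± 1.37) per kilobase. Of 12 laminin chains 9 were present, led by LAMC1 (19.8 ± 0.407), LAMB2 (12.6 ± 2.11) and LAMA5 (8.62 ± 1.41), while chains of the epithelial laminin, LAMA3 and LAMB3, stood at 6.92 and 3.45 CPM. Integrin chains, which bind these proteins, were led by ITGB1 (257 ± 19.3), ITGAV (34.9 ± 2.80) and ITGA5 (25.4 ± 0.996). ITGB1 stood at 890.3, 1029.9 and 997 CPM, lowest in library 1. The integrin family was drawn by symbol, 18 of 30 present, and it also caught the binding proteins ITGB3BP, ITGB1BP1 and ITGB1BP2, which are no integrin chains.

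Proteases and their inhibitors had 22 of 34 members present, 2 under and 10 without a row. The metalloprotease inhibitors TIMP1 (235 ± 15.2 CPM per kilobase) and TIMP2 (79.2 ± 4.49), the lysosomal cathepsin CTSD (119.6 ± 14.8) and the shedding protease ADAM9 (52.01 ± 3.48) were among the highest. TIMP1 stood at 273, 239.7 and 259.5 CPM. The urokinase PLAU stood at 111 ± 3.89 CPM (SD, n = 3) and its receptor PLAUR at 29.96 ± 2.98 CPM (SD, n = 3). Secreted matrix metalloproteases were not at that level: MMP9 was under the threshold at 0.116 CPM, and MMP1, MMP2, MMP3 and MMP7 had no row.

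The tumour class lists differed in how many members were present. Of the 20 genes of the Collisson quasi-mesenchymal class, 15 were present, 1 was under and 4 had no row. Their median was 119 CPM, against 16.5 for all listed genes and 25.1 for the coding ones. The mitotic kinase subunit CKS2 (199 ± 5.95 CPM per kilobase), PHLDA1 (87.03 ± 1.79), the lactate transporter SLC16A1 (76.1 ± 3.66), the ectonucleotidase NT5E (72.4 ± 3.63) and HMMR (64.4 ± 7.07) led it. PHLDA1 stood at 688, 716 and 703 CPM. Several of these genes, CKS2 and HMMR among them, are cell cycle genes as well. Of the 22 Collisson classical genes 5 were present, 2 under and 15 without a row, and the orphan receptor GPRC5A was alone above 100 CPM, at 409.6, 376 and 375 CPM. The median of this list was 2.16 CPM. Of the 24 Moffitt classical genes none was present, 2 were under and 22 had no row. The Moffitt basal-like list had 8 of 25 present, 1 under, 1 split and 15 without a row, 32.0% present against the 60.6% of coding genes and a median of 11.7 CPM, below that of all listed genes. It was led by the lncRNA UCA1 (56.7 ± 0.807), S100A2 (34.1 ± 2.27), the glucose transporter SLC2A1 (26.9 ± 2.15) and the ligand AREG (23.1 ± 2.82). At a threshold of 2 CPM the present counts became 5 for this list and 3 for the Collisson classical list.

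Squamous genes had 3 of 16 members present, 1 under and 12 without a row. Their master factor TP63 was nevertheless at 259, 290.3 and 271 CPM, 55.7 ± 3.24 CPM per kilobase, while the epithelial checkpoint protein SFN stood at 1.26 ± 0.196 CPM (SD, n = 3) and KRT5, KRT14, DSG3 and DSC3 had no row. The transcript forms of TP63 were not resolved in a table of gene totals.

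Markers of other cell types were mostly low or without a row. The acinar list had 2 of 26 present, with summed levels of 7.59 to 7.91 CPM and CEL highest at 4.75 ± 0.267 CPM (SD, n = 3), and PRSS1, CPA1 and PNLIP had no row. Islet and neuroendocrine genes had 3 of 24 present and summed to 49.2 to 56.1 CPM, of which the enolase ENO2 made 39.8. Chromogranin CHGA stood at 0.749 CPM, and INS, GCG and SST had no row. For leukocytes 4 of 20 genes were present, with sums of 22.6 to 26.4 CPM, led by the lysosomal CD68 at 17.04 ± 1.78 CPM (SD, n = 3), and PTPRC had no row. For endothelium 5 of 15 were present, with sums of 51.4 to 63.4 CPM, led by EGFL7 at 28.6 ± 2.999 CPM (SD, n = 3), and PECAM1, VWF and KDR had no row. Hepatocyte genes had 0 of 15 present and intestinal genes 1 of 13, the gut factor CDX2 at 4.80, 4.33 and 3.69 CPM.

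Fibroblast and neural lists were carried by a few genes at high levels. The fibroblast and stellate list had 3 of 15 present with sums of 447 to 494 CPM, nearly all from the pericyte gene RGS5, at 263, 309 and 291 CPM, and COL3A1, at 182, 182 and 185 CPM. PDGFRA, PDGFRB, DCN and FAP had no row. The Schwann and neural list had 3 of 15 present with sums of 285 to 324 CPM, nearly all from the myelin protein gene MBP, at 158, 153 and 155 CPM, and the tubulin TUBB3, at 161, 128 and 133 CPM. S100B had no row, and SOX10 was split around 1 CPM at 1.78, 0.788 and 1.30 CPM. Whether RNA of other cells had a part in these values was not tested.

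**Figure D2:**
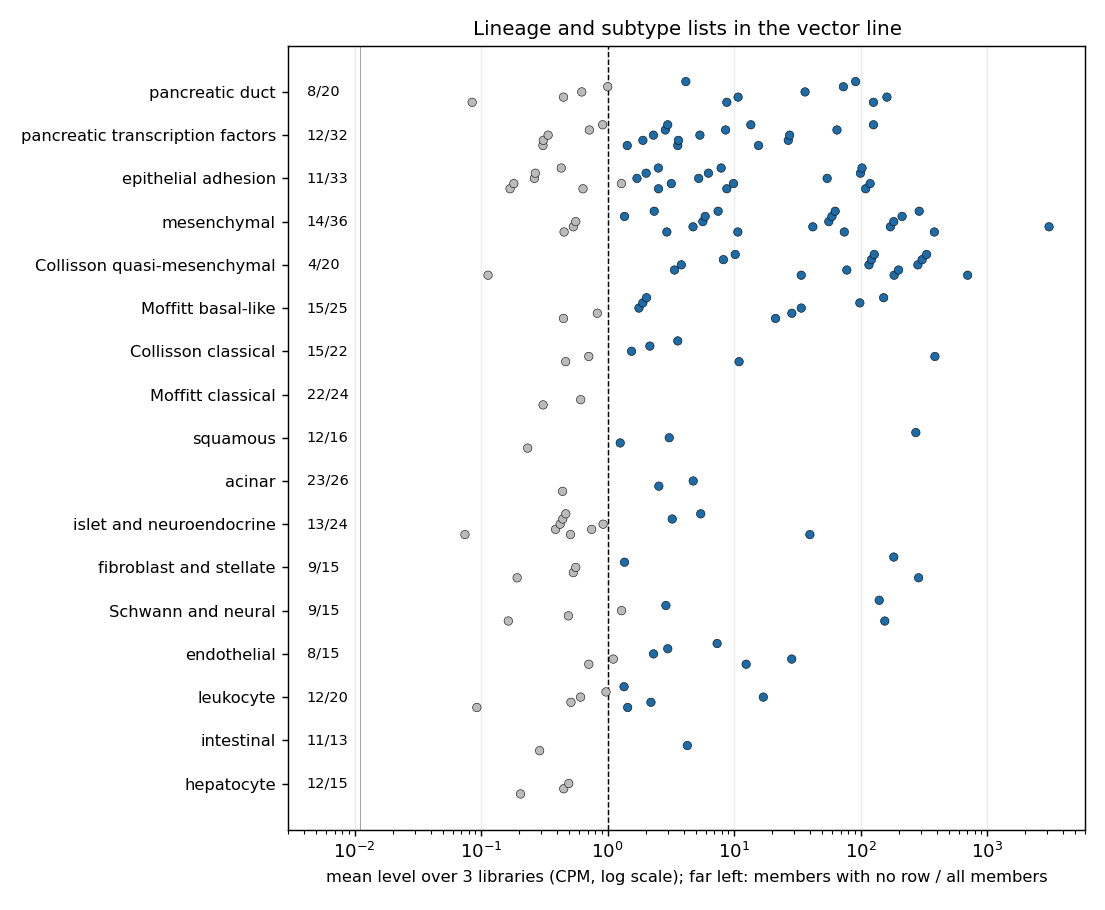
Mean level over the 3 vector libraries (CPM, log axis) of each member with a row, by list, blue where the gene was at 1 CPM or more in all 3 libraries and grey otherwise. The dashed line marks 1 CPM and the figures at far left give members with no row out of all members, such as 22 of 24 for the Moffitt classical list and 4 of 20 for the Collisson quasi-mesenchymal list.

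Receptor tyrosine kinases carry growth factor signals across the membrane. Of 58 such genes 32 were present, 9 under, 1 split and 16 without a row, and the median of those with a row was 7.98 CPM. The ephrin receptor EPHA2 led per kilobase at 115 ± 12.1, above the Wnt coreceptor RYK at 55.4 ± 1.21, the ephrin receptors EPHB4 at 29.2 ± 2.96 and EPHA4 at 24.2 ± 0.630, and AXL at 21.7 ± 1.37. With merged exons EPHA2 still led at 109.7, and the other 4 lay together, EPHA4 at 20.3, RYK at 20.2, AXL at 19.99 and EPHB4 at 19.7. EPHA2 stood at 509.99, 418 and 439.95 CPM, highest in library 1, with a spread beyond counting noise. In the ERBB family, ERBB2 stood at 96.5, 80.03 and 84.9 CPM and EGFR at 143, 137 and 141 CPM. Their values per kilobase were 18.2 ± 1.77 and 14.3 ± 0.299, an order that turned with merged exons, 8.45 against 11.2. ERBB3 was at only 1.82, 2.28 and 2.39 CPM and ERBB4 had no row. Per kilobase the insulin-like growth factor receptor IGF1R (8.46 ± 0.276), the collagen receptor DDR2 (7.84 ± 0.244) and the insulin receptor INSR (6.53 ± 0.196) lay above the scatter factor receptor MET (5.25 ± 0.196). All 4 FGF receptors were present, FGFR4 at 5.05 ± 0.727 CPM per kilobase, FGFR3 at 3.63 ± 0.264, FGFR2 at 2.45 ± 0.130 and FGFR1 at 1.82 ± 0.251. FGFR3 and FGFR4 changed places with merged exons, at 3.32 and 3.27. KIT, KDR, PDGFRA and PDGFRB had no row.

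Of 49 ligands of these receptors 30 were present, 2 under, 3 split and 14 without a row. Epiregulin (EREG), a ligand of EGFR, led at 375, 427 and 410.1 CPM and 87.4 ± 5.73 CPM per kilobase. The other EGFR ligands were lower, with AREG at 23.1 ± 2.82 and HBEGF and BTC near each other at 2.71 ± 0.283 and 2.66 ± 0.265 (2.14 and 2.66 with merged exons), and EGF and TGFA had no row. Next per kilobase came the macrophage growth factor CSF1 (35.8 ± 2.86), VEGFC (30.9 ± 0.416), PDGFC (27.8 ± 1.44) and the ephrin EFNA5 (21.8 ± 0.276). Several ligands stood beside little or no listed receptor: CSF1 was at 164, 141 and 147 CPM with its receptor CSF1R at 1.20, 1.80 and 1.33 CPM, VEGFA was at 65.99, 59.97 and 59.4 CPM with FLT1 at 0.711 CPM, and PDGFC was at 109.6, 122 and 116 CPM with no row for PDGFRA or PDGFRB. The reverse held for MET, whose ligand HGF was at 1.32, 1.13 and 1.27 CPM. FGF2 stood at 134, 146 and 141 CPM.

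**Figure D3:**
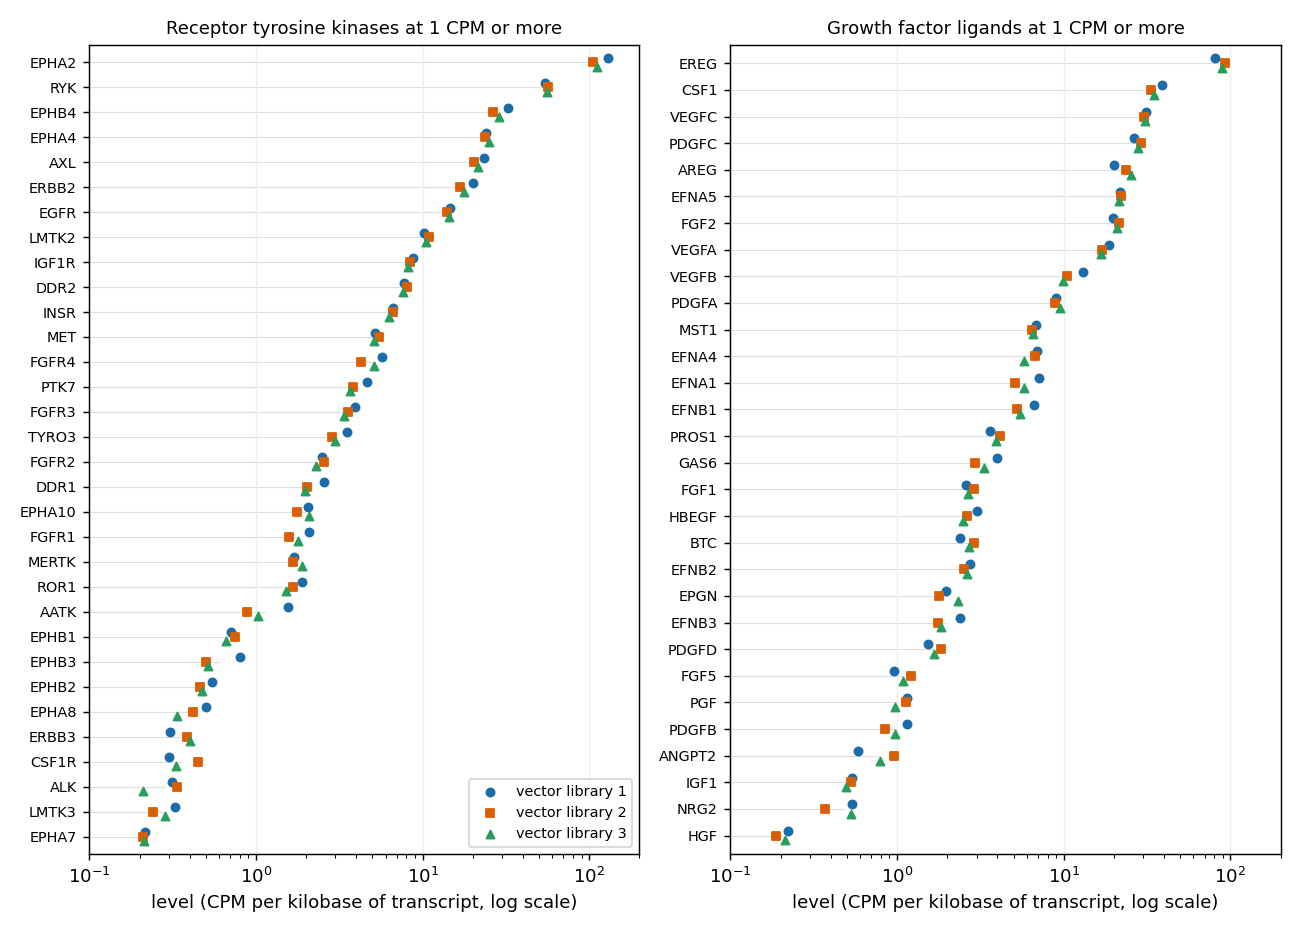
Level of the receptor tyrosine kinases (left) and growth factor ligands (right) that were at 1 CPM or more in all 3 vector libraries, in CPM per kilobase of transcript on a log axis, one marker per library. EPHA2 leads the receptors at a mean of 115 CPM per kilobase and EREG the ligands at 87.4.

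Of 22 TGF-beta and BMP receptors and SMAD proteins 19 were present. The SMADs carry the signal to the nucleus, and SMAD3 at 34.4 ± 1.26 CPM per kilobase, SMAD5 at 30.8 ± 1.63 and the shared SMAD4 at 17.8 ± 0.643 were, with the coreceptor ENG at 26.5 ± 1.56, the highest of the list. With merged exons SMAD5 lay just above SMAD3, at 23.9 and 23.6. SMAD4, a common loss in pancreatic cancer, stood at 149.5, 161 and 157 CPM. The pair of TGF-beta receptors was unequal, TGFBR1 at 67.2, 77.7 and 77.6 CPM and TGFBR2 at 4.34, 3.71 and 4.03 CPM. For Wnt, Notch and Hedgehog 24 of 34 genes were present, led by NOTCH2 (34.1 ± 0.724), its ligand JAG2 (23.1 ± 4.02) and the Wnt coreceptor LRP6 (15.6 ± 0.968). The Notch ligand JAG1, a paralog of JAG2, was at 1.51 ± 0.264 CPM (SD, n = 3) against 135 ± 23.5 CPM (SD, n = 3) for JAG2, which was highest in library 1. The Hedgehog receptor PTCH1 and target GLI1 were under the threshold at 0.382 and 0.484 CPM, while SMO stood at 30.8 ± 2.32 CPM (SD, n = 3).

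Cytokine and death receptors had 31 of 45 present, 3 under, 1 split and 10 without a row. The tumour necrosis factor receptor TNFRSF1A led at 101 ± 9.43 CPM per kilobase, before the lymphotoxin receptor LTBR (64.5 ± 5.94) and IL6ST (46.1 ± 3.14), the shared chain of interleukin 6 family receptors. IL6ST lay above LTBR with merged exons, at 44.9 and 23.2. IL6ST stood at 386, 439.6 and 428 CPM and its partner OSMR at 155, 166 and 161 CPM. Both chains of the interferon receptors were present, IFNAR1 at 123 ± 7.62 CPM (SD, n = 3) and IFNAR2 at 24.2 ± 1.69 CPM (SD, n = 3), IFNGR1 at 29.1 ± 0.624 CPM (SD, n = 3) and IFNGR2 at 24.9 ± 3.76 CPM (SD, n = 3). The death receptor TNFRSF10B stood at 107 ± 3.20 CPM (SD, n = 3), above TNFRSF10A (31.2 ± 1.75 CPM (SD, n = 3)), and the decoy TNFRSF10C was under the threshold at 0.145 CPM.

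Of 79 G protein-coupled receptors 34 were present, 6 under, 2 split and 37 without a row. The thrombin receptor F2R led at 76.04 ± 1.65 CPM per kilobase and 287, 298 and 287 CPM, followed by GPRC5A (52.6 ± 2.67), the adhesion receptor ADGRE5 (40.996 ± 3.42) and the neurotensin receptor NTSR1 (18.4 ± 3.15). NTSR1 stood at 90.7, 65.6 and 72.4 CPM, highest in library 1 and lowest in library 2. The adenosine receptor ADORA2B stood at 26.2 ± 1.48 CPM (SD, n = 3), beside NT5E, the enzyme that makes its ligand, at 284 ± 14.2 CPM (SD, n = 3). The somatostatin receptors SSTR2 and SSTR5 were just above the threshold, at 1.42, 1.66 and 1.51 CPM and 2.34, 1.94 and 1.48 CPM, and the chemokine receptor CXCR4 was under it at 0.125 CPM.

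Nuclear receptors had 28 of 48 members present. NR2F6 stood at 40.1 ± 6.65 CPM per kilobase. RXRA, the common partner of several nuclear receptors, stood at 84.2, 67.96 and 70.05 CPM, and its annotated coding transcript is short, so its value per kilobase moved from 40.1 to 6.68 with merged exons. NR2F2 stood at 128, 127 and 124 CPM and the glucocorticoid receptor NR3C1 at 105, 107 and 109 CPM, both within a few percent across libraries. The vitamin D receptor VDR, at 4.15, 2.36 and 4.37 CPM, and the fat cell regulator PPARG, at 2.43, 2.36 and 2.23 CPM, were low. The sex hormone receptors ESR1 and PGR had no row.

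Surface proteins often used as antigens had 24 of 39 present. The hyaluronan receptor CD44 (250.01 ± 10.6 CPM per kilobase) and the immunoglobulin-like BSG (249.7 ± 20.3) led and did not differ beyond their spread, followed by the transferrin receptor TFRC (203 ± 11.6) and NT5E (72.4 ± 3.63). TFRC and BSG lay together with merged exons, at 132 and 130.03. CD44 stood at 1363, 1475 and 1461 CPM, lowest in library 1. Mesothelin (MSLN), a pancreatic tumour antigen, was under the threshold at 0.0000, 0.281 and 0.0795 CPM, and CEACAM5, CEACAM6, MUC16, PSCA and EPCAM had no row. Of 14 mucins 3 were present, none above the 4.16 CPM of MUC1.

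Among genes altered in pancreatic cancer 16 of 22 were present. The oncogene MYC stood at 254, 226 and 233 CPM, or 100.5 ± 6.26 CPM per kilobase. CDKN2A, CDKN2B and their neighbour MTAP had no row, nor did KDM6A and RNF43. Of 21 cell cycle genes 16 were present. The mitotic cyclin CCNB1 led at 312 ± 12.03 CPM per kilobase and the proliferation marker MKI67 stood at 1019, 1132 and 1123 CPM. Of the D cyclins that start the cycle, CCND1 stood at 35.3 ± 0.766 CPM per kilobase, CCND3 at 20.3 ± 1.89 and CCND2 at 0.848 ± 0.106. Of their kinases, CDK4 stood at 119, 107 and 108 CPM and CDK6 was under the threshold at 0.738, 0.197 and 0.795 CPM. The inhibitor CDKN1A was at 2.55, 1.83 and 1.78 CPM, and CDKN1B at 77.8 ± 3.13 CPM (SD, n = 3).

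Glycolysis isozymes had 23 of 30 genes present, 2 under, 1 split and 4 without a row, with a median of 103 CPM. At most steps 1 isozyme held nearly all of the signal per kilobase. ALDOA stood at 425 ± 30.1 against 1.05 ± 0.215 for ALDOC, and ENO1 at 1126 ± 51.5 against 14.1 ± 0.992 for ENO2. LDHA stood at 586 ± 31.8 against 0.316 ± 0.210 for LDHC, and LDHB, the other main chain of lactate dehydrogenase, had no row. LDHA itself was at 1329, 1472 and 1449.6 CPM. Hexokinase and phosphofructokinase were shared more evenly, HK1 at 32.2 ± 1.02 and HK2 at 20.2 ± 0.221, and PFKL at 71.7 ± 10.3, PFKP at 59.9 ± 4.87 and PFKM at 27.5 ± 0.494. With merged exons PFKP, at 34.3, passed PFKL, at 23.4. Glucose enters through SLC2 transporters, of which 7 of 14 were present: SLC2A1 at 107, 91.03 and 98.3 CPM and SLC2A6 at 48.6, 35.9 and 36.9 CPM led, and SLC2A3, the neuronal form, was under the threshold with 12 reads in all. Lactate leaves through SLC16 transporters, with SLC16A1 at 316, 348 and 335 CPM and SLC16A3 at 199, 155 and 168 CPM, and 12 of 14 family members were present.

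**Figure D4:**
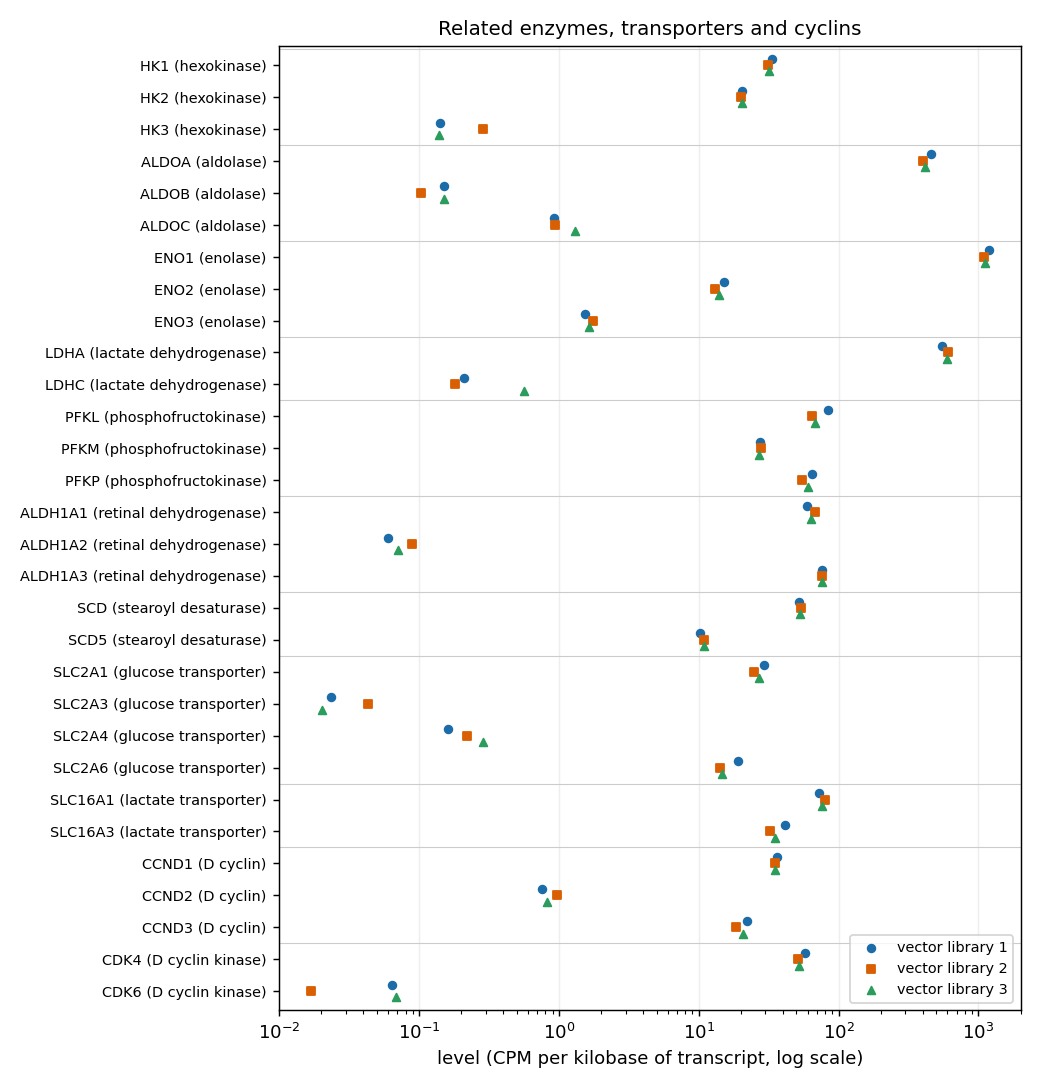
Level of related enzymes, transporters, cyclins and kinases in CPM per kilobase of transcript on a log axis, one marker per vector library, grouped by family. In the aldolase, enolase and D cyclin kinase families 1 member lies far above the rest, such as ENO1 at a mean of 1126 and ENO2 at 14.1, while HK1 and HK2 lie close together at 32.2 and 20.2.

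In amino acid metabolism 28 of 37 enzymes were present, 2 under, 1 split and 6 without a row. The transaminase GOT2 led at 137 ± 1.13 CPM per kilobase, with ODC1, the first enzyme of polyamine synthesis, at 90.7 ± 3.13 and OAT at 71.2 ± 3.39. The arginine synthesis enzyme ASS1 was low, at 6.09, 6.13 and 6.34 CPM. Serine synthesis enzymes PSAT1 and PSPH stood at 95.7 ± 2.75 CPM (SD, n = 3) and 62.4 ± 0.675 CPM (SD, n = 3). IDO1 and NNMT had no row.

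Lipid synthesis was carried by genes of high level, with 25 of 33 present. ATP citrate lyase (ACLY) led at 142 ± 2.11 CPM per kilobase, and fatty acid synthase (FASN) stood at 1062, 781 and 843 CPM, or 105 ± 17.3. FASN was clearly higher in library 1 than in the other two and varied beyond counting noise, whereas ACLY stood at 627, 609 and 617 CPM. The desaturase SCD stood at 53.3 ± 1.03 and its paralog SCD5 at 10.6 ± 0.416. The prostaglandin synthases PTGS1 and PTGS2 and lipoprotein lipase LPL had no row.

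Of 57 genes of drug and aldehyde metabolism 35 were present, 5 under, 1 split and 16 without a row. The quinone reductase NQO1 (158 ± 6.06 CPM per kilobase), the glutathione transferase GSTP1 (155 ± 7.82) and the aldose reductase AKR1B1 (151 ± 8.87) led and overlapped within about their spread. NQO1 stood at 439, 471 and 469 CPM. A pair of retinal dehydrogenases was high, ALDH1A3 at 299, 299.6 and 299 CPM and ALDH1A1 at 125, 144 and 133 CPM, and the third, ALDH1A2, was under the threshold at 0.246, 0.366 and 0.292 CPM. In the whole aldehyde dehydrogenase family 14 of 18 were present. The ketosteroid reductase AKR1C1 stood at 287 ± 3.02 CPM (SD, n = 3) and AKR1C2 at 62.6 ± 2.10 CPM (SD, n = 3), but these genes are near-identical, and their split is uncertain. Cytochromes P450 had 17 of 55 present, a share of 30.9% against 60.6% of all coding genes, with CYP27C1 highest at 21.1 ± 0.469 and the sterol enzyme CYP51A1 next at 19.9 ± 1.32. CYP3A4 and CYP2E1 had no row. Of 19 UDP glucuronosyltransferases none was present, 5 were under the threshold and 14 had no row. The 5 listed ones, all UGT1A genes, share exons.

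Genes that take up, activate or are hit by chemotherapy drugs had 27 of 34 members present, with a median of 71.5 CPM. Gemcitabine enters through SLC29A1, at 107, 89.3 and 95.6 CPM. It is phosphorylated by DCK, at 28.4, 35.2 and 35.5 CPM, and inactivated by CDA, which was under the threshold at 0.431, 0.141 and 0.0795 CPM with 22 reads in all, 14 of them in library 1. The subunits of its target ribonucleotide reductase stood at 178, 192 and 181 CPM (RRM1) and 523, 579 and 570.2 CPM (RRM2). For fluorouracil, the target TYMS stood at 74.2, 73.6 and 72.8 CPM and the degrading enzyme DPYD at 199, 213 and 214 CPM. TOP1, the target of irinotecan, stood at 263, 295 and 287 CPM, and PARP1 at 383 ± 0.787 CPM (SD, n = 3). The efflux pump ABCB1 had no row.

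All SLC genes together had 221 of 358 present, 61.7% against 60.6% of all coding genes, with 27 under, 7 split and 103 without a row. The mitochondrial ADP/ATP carriers SLC25A5 (492 ± 8.31 CPM per kilobase) and SLC25A6 (291 ± 21.6) led, then the amino acid transporter SLC38A2 (244 ± 12.6) and the phosphate transporter SLC20A1 (222 ± 0.618). SLC38A2 lay above SLC25A6 with merged exons, at 180.3 and 139. SLC38A2 stood at 1119.7, 1233 and 1219 CPM, lowest in library 1. Of 60 amino acid transporters 30 were present. After SLC38A2 came the glutamine transporter SLC1A5 (66.02 ± 6.05), SLC38A1 (62.9 ± 2.60) and SLC7A5 (43.7 ± 4.32), whose partner chain SLC3A2 stood at 36.5 ± 3.75. The cystine transporter SLC7A11 was low, at 12.03, 13.2 and 14.6 CPM. Zinc transporters had 18 of 24 present, with a median of 71.7 CPM, led by the importer SLC39A10 (47.6 ± 2.39). Mitochondrial carriers had 41 of 48 present.

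The organic ion family SLC22, to which both genes of the other lines belong, had 6 of 21 present, 2 under, 1 split and 12 without a row. Its share of 28.6% present lies below the 60.6% of coding genes. The carnitine transporter SLC22A5 led at 38.5, 36.6 and 38.7 CPM and 11.7 ± 0.361 CPM per kilobase. SLC22A15 stood at 6.52, 6.36 and 5.46 CPM. For SLC22A10 1 read was counted in the 3 libraries together. Organic anion transporters of the SLCO family had 6 of 11 present, led by the thyroid hormone transporter SLCO4A1 at 346, 285 and 293 CPM. SLCO1B3, known as a liver transporter, stood at 89.5, 101 and 102 CPM and its liver neighbour SLCO1B1 at 3.41 ± 0.655 CPM (SD, n = 3).

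Bicarbonate and anion exchangers, the secretory equipment of duct cells, had 11 of 20 present. The bicarbonate importer SLC4A7 (23.5 ± 1.99 CPM per kilobase) and the exchanger SLC4A2 (21.97 ± 2.03) led and did not differ beyond their spread. SLC26A6, an apical exchanger of the duct, stood at 31.5 ± 2.11 CPM (SD, n = 3), while SLC26A3 and SLC4A4 had no row. The chloride importer SLC12A2 stood at 132 ± 10.2 CPM (SD, n = 3). Of 15 aquaporins 1 was present, AQP11 at 2.34, 4.08 and 2.89 CPM. Among ion channels 22 of 34 were present. The mitochondrial pore VDAC1 (229 ± 6.79) led, followed by the mechanosensitive PIEZO1 (58.8 ± 9.18) and the calcium-activated potassium channel KCNN4 (34.98 ± 3.03). PIEZO1 stood at 560.2, 421 and 446 CPM, highest in library 1, with a spread beyond counting noise.

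ABC transporters had 28 of 45 present, 6 under, 1 split and 10 without a row. ABCE1, a ribosome recycling factor rather than a transporter, led at 52.9 ± 3.04 CPM per kilobase. The drug and conjugate pump ABCC2 was next at 32.7 ± 1.55 and 179.9, 197 and 193 CPM. ABCC5 stood at 162, 156 and 158 CPM, and ABCC1 at 26.3 ± 0.821 CPM (SD, n = 3) and ABCG2 at 1.82 ± 0.136 CPM (SD, n = 3) were lower per kilobase (3.99 ± 0.124 and 0.406 ± 0.0305 against 26.8 ± 0.508 for ABCC5).

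Class I antigen presentation genes lay well under their partner chain. HLA-B stood at 20.7, 17.4 and 18.4 CPM and HLA-E at 11.998, 11.3 and 11.8 CPM, while their light chain B2M, on another chromosome, stood at 94.7, 101 and 94.3 CPM. Per kilobase B2M (56.6 ± 2.12) lay above HLA-B (12.2 ± 1.10). HLA-DQB1 was under the threshold and 13 of the 17 HLA genes of the list had no row. HLA genes are highly polymorphic, and how their reads were aligned is not given. Neighbouring genes of other function were low as well. Over coding genes with a row that start between 29 and 33 Mb on chromosome 6 (RefSeq, GRCh38.p14), which holds the major histocompatibility complex, the median was 3.94 CPM over 75 genes. It was 79.0 over 75 genes from 20 to 28 Mb, 30.8 over 61 genes from 34 to 42 Mb and 25.1 over all coding genes of the table. By library the median of the interval was 4.28, 3.74 and 3.90 CPM, so the 3 libraries gave the same order of windows. In the interval 3 genes reached 100 CPM, against 35 before it and 11 after it. One of the 3 was the tubulin TUBB, at 232 ± 6.96 CPM (SD, n = 3), and the chloride channel gene CLIC1 stood at 8.32 ± 1.21 CPM (SD, n = 3) and the collagen receptor DDR1 at 9.02 ± 1.33 CPM (SD, n = 3). The window from 20 to 28 Mb was itself high, above all coding genes in median and in the share at 100 CPM. Set beside that window alone, the interval looks lower than it does beside the later window or all coding genes. Which genes raised the earlier window was not tested. The windows were chosen after the low HLA levels were seen, and what lies behind the low interval was not tested.

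Promoter base composition differed between level classes. For 15842 coding genes with a RefSeq promoter of 300 bases, the median number of CG dinucleotides was 28 for genes at a mean of 100 CPM or more, 27 from 10 to 100 CPM, 22 from 1 to 10 CPM, 13 below 1 CPM and 6.5 for genes with no row, against 22 for all. The letters TATAAA on either strand of the part upstream of the start were found in 6.29%, 4.37%, 7.31%, 10.3% and 17.5% of these classes, against 9.23% of all. A CG dinucleotide reads the same on both strands. A single start was kept per gene, and whether it was the start used in these cells was not tested. With that limit, the 4 promoters printed above do not follow the class medians: VIM and KRT8 held 10 and 2, and GATA6, at 0.309 CPM, held 25.

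The 3 libraries ranked genes almost alike and differed in detail. Over 14058 genes at a mean of 1 CPM or more, Pearson's r of log2 CPM across genes, which are not independent replicates, was 0.994 between libraries 1 and 2, 0.996 between 1 and 3 and 0.998 between 2 and 3. In a chi-square test of the recovered reads with Benjamini-Hochberg adjustment at 0.05, 7434 genes (52.9%) differed between the libraries by more than counting noise. The median coefficient of variation over the 14058 genes was 7.53%, against 3.34% from counting alone. Library 1 was the highest or the lowest in 92.7% of the 7434 genes, library 2 in 76.4% and library 3 in 30.9%. Every gene has both a highest and a lowest library, so each gene counts for more than 1 library in these shares. With 1 library left out, 2044 genes differed without library 1, 5561 without library 2 and 7055 without library 3. Each pair thus differed by more than counting noise, and none of the 3 was a repeat deposit of another. The differences over all 3 libraries were mostly small, and 671 of the 7434 genes varied by 1.5-fold or more between the highest and the lowest library.

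The direction followed GC content. Over 9319 coding genes at 10 CPM or more, the median log2 level of library 1 against the other two was -0.15 in the 3107 genes with the lowest transcript GC, -0.02 in the 3105 in the middle and 0.19 in the 3107 with the highest. Spearman's rho of that value with GC across genes was 0.822, and it was -0.791 for library 2 and -0.446 for library 3. The values of a gene in the 3 libraries cancel out by construction, so these rho values are not separate observations. FASN, with a GC content of 65.3%, was highest in library 1, and so were PIEZO1 (64.3%) and JAG2 (64.03%), while EREG (36.1%) and TP63 (42.5%) were lowest there. Levels of GC-rich and GC-poor genes within a library carry this difference. The 3 GC classes were chosen after the library differences were seen. The widest relative spreads were those of the mitochondrial ribosomal RNAs, RNR1 at 2.98, 33.4 and 34.02 CPM and RNR2 at 92.2, 419 and 481 CPM, low in library 1. Their share was 0.00958%, 0.0454% and 0.0516% of reads, while the mitochondrial coding genes took 2.19%, 2.27% and 2.32%. Whether the ribosomal depletion step had a part in these values was not tested. The GC-rich microRNA gene MIR3648-1 ran the other way, at 597, 221 and 276 CPM, and its near-identical copy MIR3648-2 likewise, at 708, 341 and 401 CPM. No label names a batch that would separate library 1.

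**Figure D5:**
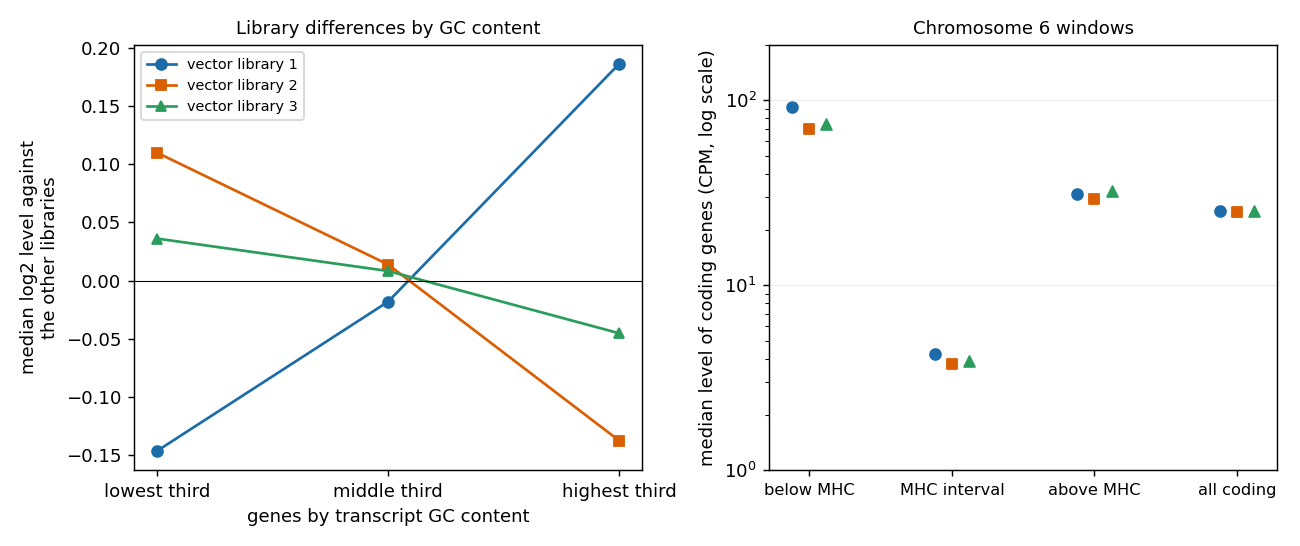
Left, median log2 level of each vector library against the other libraries for coding genes in 3 classes of transcript GC content, where library 1 goes from -0.15 to 0.19. Right, median level in CPM (log axis) of coding genes in windows of chromosome 6 and over all coding genes, one marker per library, where the interval of the major histocompatibility complex lies at 3.74 to 4.28 CPM.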

How the data were processed

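The 3 vector libraries were strand-specific, ribosome-depleted total RNA libraries, per the labels' protocols. The authors deposited 1 table of CPM for 16750 genes by human Entrez gene number. Per the submitters' processing notes, edgeR was used, and hg38 and mm9 are listed as builds with no role stated. Which aligner and read counter were run, and with which strand setting, none of the sources used here says. All 9 library columns were mapped to a group by name. Symbols came from a second deposited table, and 187 genes had none. Of the genes, 16491 matched the RefSeq table (GRCh38.p14) and 15860 (94.7%) had a GENCODE 29 length.

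Whole reads were recovered from the deposited CPM values, 100% of them within 0.1 read of a whole number, and give the library totals and the counting error, which covers counting alone. The rule used group membership only. The single test was a chi-square test of reads across the 3 libraries with 2 degrees of freedom, Benjamini-Hochberg adjusted over 14058 genes at a mean of 1 CPM or more with a threshold of 0.05. On simulated reads for these 14058 genes it called 83 of 100 genes changed 1.5-fold, 98 of 100 changed 2-fold and 8 unchanged ones. The simulated reads held counting noise alone, as the test assumes, and every change was put in library 1. Changes in other libraries, and reads with wider spread, were not simulated. No test between groups was made. Spreads are SDs over 3 libraries.

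The 38 lists and 26 symbol families hold 1721 genes, of which 1095 had a row, 901 were present and 1 matched no RefSeq symbol. The libraries, lists and named genes were chosen with earlier results of these data known. Genes were named by a rule: the 25 highest by CPM, the 25 highest coding genes per kilobase, list members with the highest per kilobase first, and the 20 with the largest coefficient of variation at 10 CPM or more. Levels per kilobase used the longest coding transcript, chosen over the annotated principal one after values were seen, because several principal transcripts were very short. Y-linked genes and XIST were left out. Some further list members are counted in the lists but not reported here by name. Alternatives were other thresholds, plain library totals, other lengths, other class limits and leaving out each library. Python 3.11.15, pandas 2.3.3, SciPy 1.17.1, NumPy 2.4.6 and Matplotlib 3.10.9 were used.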

Additional observations from a re-analysis of the deposited data

How the results depend on the processing

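The number of present genes ran from 12510 at 2 CPM to 14766 at 0.5 CPM, and from 13755 to 13825 without each library in turn. The number of present list members ran from 823 to 959 around 901. Without mitochondrially encoded genes the top 100 genes held 16.7% of reads, against 17.8%, and without each library in turn 17.8% to 17.9%. The number of genes that differed between libraries was 7434, and 2044 to 7055 without each library in turn, the lowest without library 1. With classes at 0.5, 5 and 50 CPM, the median number of promoter CG dinucleotides became 26, 18 and 11 in the middle, low and lowest class, in the same order. Leaving out 1 of 3 libraries cannot raise a mean past 1.5-fold, so there only a fall could pass this limit. Of 928 levels at a mean of 1 CPM or more, none fell past it without 1 library. None moved past 1.5-fold with plain library totals. The widest ratios were 0.701 for CD24 and 1.44 for RNR1, each without 1 library. RNR1 stayed within the limit although its libraries stood at 2.98, 33.4 and 34.02 CPM. Of 170 list members with reads but a mean under 1 CPM, 26 moved past 1.5-fold when 1 library was left out. CDA went from 0.217 to 0.110 CPM without library 1 and MSLN from 0.1203 to 0.0398 CPM without library 2. The present count of 5 lists moved by over 1.5 times: at 2 CPM to 3 for Collisson classical, 5 for Moffitt basal-like, 2 for leukocyte and 1 for mucins, and at 0.5 CPM to 2 for aquaporins. Of the 25 ranks per kilobase, 24 changed with merged exons, 25 with no length correction and 16 with the principal transcript, a length added after the data were seen. They changed by more than 1 SD of the rank over the 3 libraries for 20, 24 and 5 genes. No paired analysis was possible because all values come from 1 group. Depth limits values under about 1 CPM, where 1 library holds fewer than 37.7 reads.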
